A study of Homo sapiens with 6 samples.

Results

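The 10 genes described here were the transcription factor SRF (serum response factor) and 9 genes of the actin cytoskeleton, ACTB, ACTG1, ACTA2, TAGLN, CNN1, MYL9, TPM1, VCL and FLNA. Each was found by its symbol among the 19727 genes of an RNA-seq table, and 9 of the 10 were abundant enough to be tested. The table held 6 libraries of DU145, an established human prostate cancer cell line. In 3 libraries (OE) the cells carried lentivirus-circCSPP1, a vector that overexpresses the circular RNA circCSPP1, and in 3 (NC) they carried the control lentivirus-NC. Both kinds of cells were stable lines made by lentiviral infection and puromycin selection, so vector and selection were shared by the groups. No source used here says whether the 3 libraries of a group came from separate cultures or infections, so p-values measure only the spread between these libraries, which may be technical. The circular RNA had no row of its own and was not measured.

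SRF binds a short A/T-rich element, the CArG box, and acts with cofactors of 2 families. Myocardin-related transcription factors (MRTFs) are held back by actin monomers, so that the assembly of filaments frees them to switch on actin, myosin, tropomyosin and adhesion genes together with SRF. Ternary complex factors (TCFs) of the ETS family answer to mitogen signalling and switch on immediate early genes such as EGR1 and FOS. In epithelial tumor cells the cytoplasmic actins, the actin crosslinker filamin A and the adhesion protein vinculin shape stress fibers and contacts with the matrix, whereas alpha smooth muscle actin, transgelin and calponin are best known from contractile cells. Beta-actin also served this study as the reference for qRT-PCR of mRNA and circular RNA and for western blotting.

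The promoters of these genes are shown because the CArG box is what links the actin genes to SRF. In each line the sequence is the strand of the gene, from RefSeq on GRCh38.p14, and capitals mark a CArG box, written as CC, then 6 bases that are each A or T, then GG, a pattern that reads the same on both strands.
SRF promoter, chr6:43171119-43171268, plus strand: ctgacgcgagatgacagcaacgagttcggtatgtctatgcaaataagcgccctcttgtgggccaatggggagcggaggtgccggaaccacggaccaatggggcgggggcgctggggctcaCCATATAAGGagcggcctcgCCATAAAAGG
ACTG1 promoter, chr17:81512874-81512903, minus strand: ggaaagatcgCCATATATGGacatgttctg
FLNA promoter, chrX:154374639-154374784, minus strand: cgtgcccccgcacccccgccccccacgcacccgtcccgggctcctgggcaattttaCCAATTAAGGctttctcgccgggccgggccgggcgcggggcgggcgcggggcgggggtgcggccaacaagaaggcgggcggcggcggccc
VCL promoter, chr10:73997966-73998113, plus strand: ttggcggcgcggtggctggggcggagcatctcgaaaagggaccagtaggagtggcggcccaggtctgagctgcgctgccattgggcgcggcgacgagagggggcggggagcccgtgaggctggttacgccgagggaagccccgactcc

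SRF had 2 RefSeq promoters, and 1 of them held a match. This one, printed above, held 2 boxes, beginning 30 and 10 bases before the RefSeq start. ACTG1 and FLNA each held 1, both beginning 94 bases before the start, and VCL, printed because it was the gene whose difference passed the test, held none. Promoters of 7 of the 10 genes could be matched. Counting a gene by any of its promoters, 3 of these 7 held a box in the 250 bases before the start. This compares with 1.16% of 35116 promoters and 1.44% of 27305 genes. ACTA2, CNN1, TPM1 and VCL held none. Of the 30 matched genes in a list of 32 other MRTF-SRF targets, 11 held a box. Both sets were chosen as SRF and its targets, which the CArG box links, so a share above the background is no separate result. A match describes letters only, and no match says only that these letters were not in this window.

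The genes lie on 9 chromosomes. By GENCODE 29 on GRCh38, SRF spans chr6:43171299-43181507 on the plus strand, with 7 exons and a transcript of 4202 nt. ACTB spans chr7:5527147-5563784 on the minus strand, with 6 exons and 1921 nt. VCL spans chr10:73995193-74121363 on the plus strand, with 22 exons and 5490 nt, and TPM1 chr15:63042632-63071915 on the plus strand. TPM1 has 34 annotated transcripts, so its single value sums muscle-type and short tropomyosins that the table did not separate. The actins have near-identical copies. Of all 50-base windows of the ACTB transcript, 10.256% occur exactly in 17 other genes, above all the pseudogene ACTBP2 (5.075%), and for ACTG1 3.58% occur in 9 others, so the 2 cytoplasmic actins are uncertain to that extent. The share was 0.012% for FLNA, with FLNC, and 0.0% for the other 7.

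Levels are given as FPKM, fragments per kilobase of transcript per 1000000 fragments, as the authors deposited them. Depth, estimated from the steps between low values, was 28616000 to 36400000 fragments per library. Fragments per gene are estimates from FPKM, this depth and the length of a single transcript of the gene. The NC libraries correlated with each other across genes at 0.9914 to 0.9915, and the OE libraries at 0.9697 to 0.9898, with OE replicate 1 the farthest from its group. The median gene had a highest over lowest value of 1.13 among the NC libraries and of 1.33 among the OE libraries. Differences were tested with limma on log2(FPKM + 1) over 12322 genes and called at a Benjamini-Hochberg adjusted p under 0.05. By this test 11.4% of all tested genes were called, 4.69% higher and 6.66% lower in OE. That count, 1399 genes, went to 300 without NC replicate 1, 317 without NC replicate 2, 407 without NC replicate 3, 450 without OE replicate 3 and 3512 without OE replicate 1.

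Of the 9 tested genes of the SRF and actin group, 1, VCL, was called, or 11.1% beside the background of 11.4%. VCL was lower in OE, and 0 genes were called higher at adjusted p under 0.05 by limma, although 3 (SRF, TPM1 and VCL) had an unadjusted p under 0.05. Point estimates were above 0 for 3 and below 0 for 6, with a median log2 fold change of −0.13 beside −0.03 over all tested genes. For 5 of the 9 the OE and NC values did not overlap, or 55.6%, where 36.4% of all tested genes did not overlap. No gene of the group passed an unadjusted p of 0.01 together with an absolute log2 fold change of 1.5, which 0.195% of all tested genes did.

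**Figure D1:**
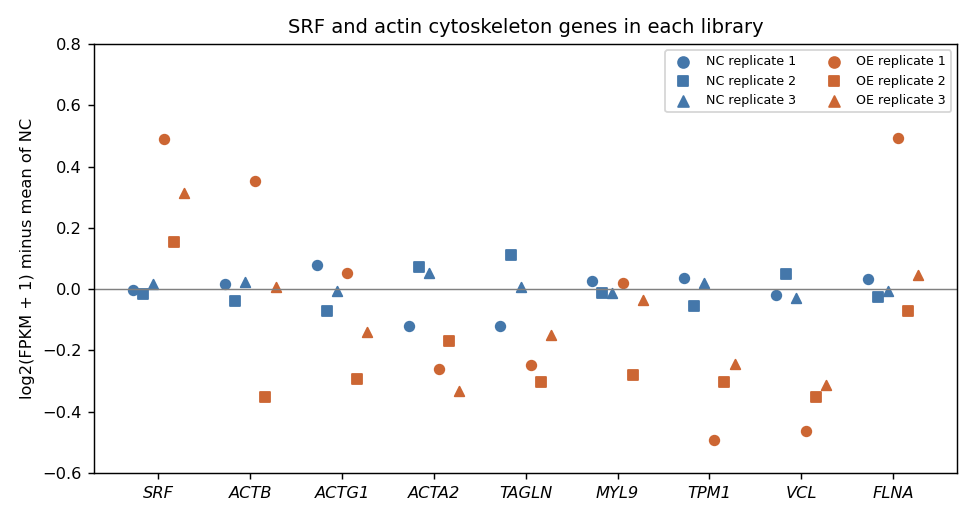
Each point is 1 library of 1 gene, as log2(FPKM + 1) minus the mean of the 3 NC libraries, with NC in blue, OE in orange and the symbol giving the replicate number; CNN1, at 0 in every library, is not drawn. All 3 OE points of SRF lie above and all 3 of VCL, TPM1, TAGLN and ACTA2 below the NC points, while those of ACTB run from −0.35 to 0.35.

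SRF was at 27.66, 27.4 and 28.04 FPKM in the 3 NC libraries and at 39.32, 30.9 and 34.63 FPKM in the 3 OE libraries. The lowest OE library was above the highest NC library, and the OE libraries were spread far more widely than the NC libraries. The means were 27.7 ± 0.322 FPKM in NC and 34.9 ± 4.22 FPKM in OE (SD, n = 3 each). These values rested on an estimated 3304 to 5271 fragments per library. The log2 fold change was 0.32 with an SE of 0.11, a fold of 1.25 (95% confidence interval 1.05 to 1.48), and limma gave an unadjusted p of 0.019 and an adjusted p of 0.10, which did not pass. Across alternative settings the adjusted p of SRF ranged from 0.0088 to 0.58, always with a positive log2 fold change of 0.23 to 0.40. The smallest value, 0.0088, came from correction of each library for GC content and transcript length, described further down.

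Vinculin (VCL), which ties actin filaments to integrin and cadherin adhesions, fell in OE. It was at 83.15, 87.37 and 82.54 FPKM in NC and at 60.86, 65.88 and 67.66 FPKM in OE. All 3 OE libraries lay below all 3 NC libraries, and the range within each group was smaller than the gap between the groups. The log2 fold change was −0.38 with an SE of 0.08, or a fold of 0.77 (95% confidence interval 0.677 to 0.877), with a limma adjusted p of 0.027. The call held without OE replicate 1 (adjusted p = 0.0087) or OE replicate 2 (0.046) and was lost without any of the other libraries. The adjusted p was 0.11 without NC replicate 1, 0.13 without NC replicate 2, 0.10 without NC replicate 3 and 0.076 without OE replicate 3, while the log2 fold change stayed between −0.41 and −0.33.

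Tropomyosin 1 (TPM1), which lies along actin filaments and controls the access of myosin, was at 65.16, 61.07 and 64.53 FPKM in NC and at 44.89, 51.36 and 53.49 FPKM in OE. The groups did not overlap, with OE replicate 1 lowest. The log2 fold change was −0.35 with an SE of 0.094, or a fold of 0.787, and the limma adjusted p of 0.055 did not pass. Without OE replicate 1 it was −0.27 with an adjusted p of 0.019. Exact two-sided permutation tests gave SRF, VCL and TPM1 a p of 0.1 each, the smallest that 3 against 3 libraries can give.

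Beta-actin (ACTB), the major cytoplasmic actin, was at 2265.4, 2180.28 and 2276.02 FPKM in NC. In OE it was at 2857.84, 1756.44 and 2250.99 FPKM, so that 1 OE library was above, 1 below and 1 within the NC range. The group means were 2240 ± 52.5 and 2290 ± 552 FPKM (SD, n = 3 each), a fold of 1.0 with a 95% confidence interval of 0.776 to 1.29, an adjusted p of 0.99 by limma and an exact permutation p of 1.0. The interval leaves room for a difference of that size in either direction. The highest OE library exceeded the lowest by 1.63-fold, against 1.04-fold in NC. That OE spread was wider than the spread of 79.4% of all tested genes. Counting error was small beside it, at an estimated 116745 to 175128 fragments per library.

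The other cytoplasmic actin, gamma-actin (ACTG1), spread less than ACTB in OE (1.27-fold) and more in NC (1.11-fold), at 1451.02, 1308.18 and 1368.11 FPKM in NC and at 1425.52, 1122.2 and 1248.36 FPKM in OE. The groups overlapped through OE replicate 1. Its log2 fold change was −0.13 with an SE of 0.096 and an adjusted p of 0.44 by limma, and it was −0.22 (adjusted p = 0.052) without OE replicate 1 and −0.043 (0.76) without OE replicate 2. Per kilobase, ACTG1 was below ACTB in all 6 libraries, with log2 ratios of ACTG1 to ACTB of −0.64, −0.74 and −0.73 in NC and −1.0, −0.65 and −0.85 in OE.

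Because ACTB was the endogenous control for mRNA and circular RNA in the qRT-PCR of the study, it was set beside 14 common reference genes. ACTB lay 0.35 above the NC mean on the log2 scale in OE replicate 1, 0.35 below it in OE replicate 2 (−0.35) and 0.01 above it in OE replicate 3. A transcript at the same FPKM in all libraries would therefore read 0.35 lower and 0.35 higher in the first 2 of these libraries once divided by ACTB. That holds for the deposited values of these sequencing libraries only, and the ACTB values of the qRT-PCR were not examined. Correction for GC content and length, described further down, took the log2 difference in ACTB between OE replicates 1 and 2 from 0.70 to 0.54. Of the 14 reference genes, 10 had a smaller highest over lowest ratio in OE than ACTB. Those with a larger one included, named after their values were seen, TFRC at 1.74, YWHAZ at 1.88 and B2M at 2.54.

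The glycolytic enzyme GAPDH had ratios of 1.03 in NC and 1.28 in OE, with a log2 fold change of 0.0 (SE 0.092) and an adjusted p of 0.98. The peptidyl-prolyl isomerase PPIA (fold 0.783, adjusted p = 0.017) and the glycolytic enzyme PGK1 (fold 0.738, adjusted p = 0.011) fell in OE by limma, and the ribosomal protein gene RPL13A rose (fold 1.31, adjusted p = 0.019). PGK1 had the smallest OE ratio of the 14, 1.03, although it was among the 3 genes called. Their calls were lost without any 1 of the NC libraries, with adjusted p up to 0.078 for PGK1, 0.094 for PPIA and 0.093 for RPL13A, and that of PGK1 also without OE replicate 3.

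**Figure D2:**
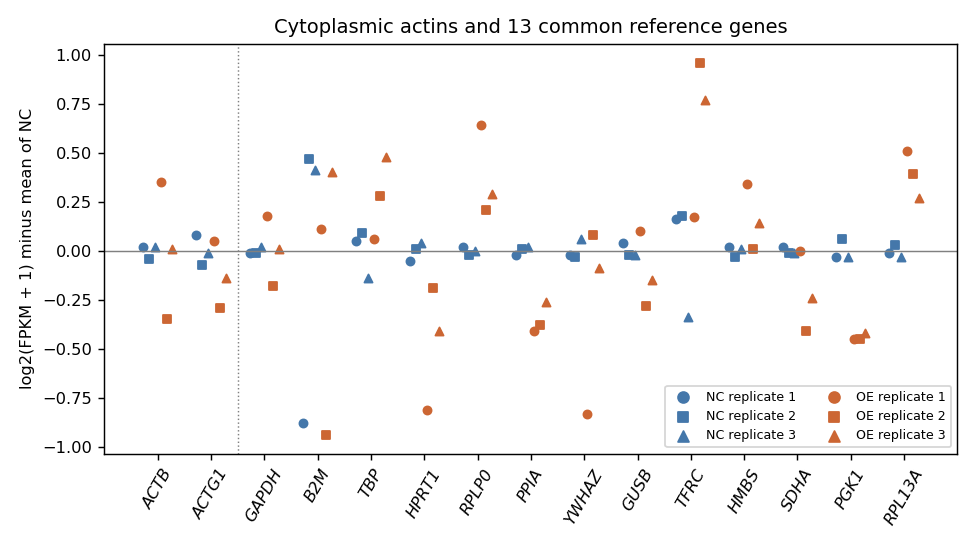
The 2 cytoplasmic actins, left of the dotted line, and 13 of the 14 common reference genes are drawn as log2(FPKM + 1) minus the NC mean, with 1 point per library. NC points (blue) of ACTB lie between −0.04 and 0.02 and OE points (orange) between −0.35 and 0.35, while all 3 OE points of PGK1 lie between −0.45 and −0.42.

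The genes best known from smooth muscle were low or absent in these cells. Alpha smooth muscle actin (ACTA2) was at 2.29, 2.76 and 2.71 FPKM in NC and at 1.99, 2.18 and 1.84 FPKM in OE. These groups did not overlap, but the values rested on only an estimated 71 to 133 fragments per library. The log2 fold change was −0.26 with an SE of 0.11 and an adjusted p of 0.18 by limma, and the +1 added before the logarithm shrinks the change of so low a gene. Transgelin (TAGLN), an actin-binding protein of contractile cells, was at 9.62, 11.47 and 10.6 FPKM in NC and at 8.72, 8.36 and 9.41 FPKM in OE. Here too the highest OE library was below the lowest NC library, though narrowly. The log2 fold change of TAGLN was −0.23 with an SE of 0.11 and an adjusted p of 0.22. Of the ACTA2 transcript 38.3% overlaps exons of ACTA2-AS1 on the opposite strand, and of the TAGLN transcript 20.4% overlaps exons of PCSK7. Whether counting used strand is not given in the sources used here, so reads from these pairs may not be told apart.

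Calponin 1 (CNN1), a regulator of smooth muscle actomyosin, was listed at 0 in all 6 libraries. A count of 0 allows up to 3 fragments, or 0.0505 to 0.0642 FPKM depending on the library, a limit that covers counting error only. The regulatory myosin light chain MYL9, in contrast, was well covered, at 73.66, 71.63 and 71.56 FPKM in NC and at 73.31, 59.31 and 70.41 FPKM in OE. The groups overlapped and OE replicate 2 alone was low, with a log2 fold change of −0.10, an SE of 0.099 and an adjusted p of 0.56 by limma, and of −0.0085 without OE replicate 2.

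Filamin A (FLNA), which crosslinks filaments into networks and anchors them to the membrane, was at 438.52, 420.66 and 427.3 FPKM in NC and at 604.42, 407.77 and 442.31 FPKM in OE. OE replicate 1 stood above all others, OE replicate 3 was just above NC and OE replicate 2 was below it. The log2 fold change was 0.16 with an SE of 0.14 and an adjusted p of 0.52 by limma. Without OE replicate 1 it was −0.014, so the direction of FLNA rested on 1 library.

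The OE libraries differed from each other along GC content. Across the 7663 genes that averaged 10 FPKM or more, each library was set against the mean of the other 2 libraries of its group. The departure of OE replicate 1 correlated with the GC content of the transcript at a Spearman coefficient of 0.808. The coefficient was −0.753 for OE replicate 2, −0.557 for OE replicate 3 and −0.0767 to 0.114 for NC. Values within a group depend on each other, so a shift in OE replicate 1 also enters those of OE replicates 2 and 3. The genes share their libraries, and the coefficients are given as a description. The median difference between OE replicates 1 and 2 went from −0.778 in transcripts of 30 to 35% GC to 0.436 in those of 65 to 70% GC.

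**Figure D3:**
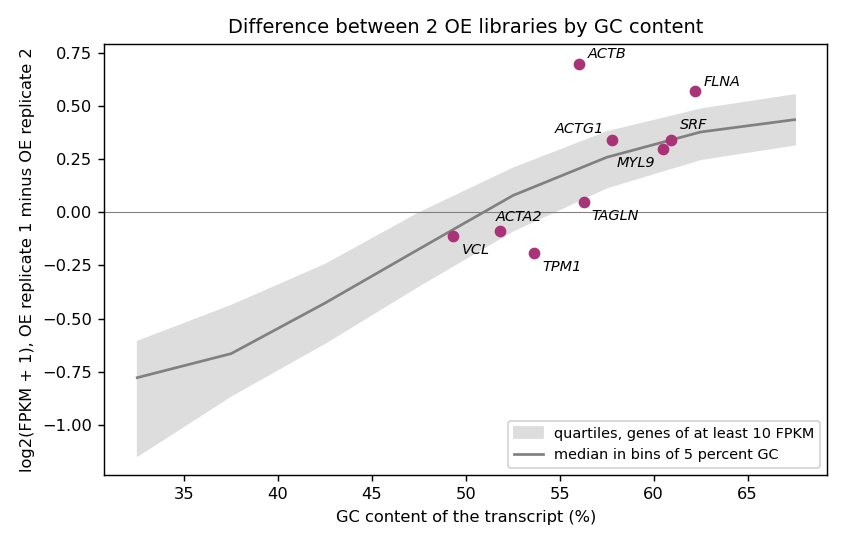
Each point is 1 gene of the group, with the GC content of its transcript on the horizontal axis and log2(FPKM + 1) of OE replicate 1 minus OE replicate 2 on the vertical axis; the line and band give the median and quartiles of genes averaging 10 FPKM or more in bins of 5 percent GC. SRF (0.34) and MYL9 (0.30) lie on the band and ACTB (0.70) lies far above it.

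FLNA (62.2% GC), SRF (60.9%) and MYL9 (60.5%) were the most GC-rich of the tested genes, and VCL (49.3%) the least. With each library corrected by a smooth curve in GC content and length, SRF read 27.7, 27.6 and 28.4 FPKM in NC and 33.9, 33.8 and 35.8 FPKM in OE. The OE libraries of SRF then lay within a ratio of 1.06 where they had spanned 1.27, while the gap between the groups remained. The corrected log2 fold change of SRF was 0.30 with an SE of 0.054 and an adjusted p of 0.0088 by limma.

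The OE ratio of FLNA went from 1.48 to 1.12, with a corrected log2 fold change of 0.14 and an adjusted p of 0.097. That of ACTB went only from 1.63 to 1.46, with corrected OE values of 2650, 1820 and 2250 FPKM, and the log2 difference between OE replicates 1 and 2 went from 0.70 to 0.54. VCL (log2 fold change −0.37, adjusted p = 0.0039) and TPM1 (−0.38, adjusted p = 0.018) passed after the correction. In all, 3 of the 9 genes were called on corrected values, SRF higher and VCL and TPM1 lower. That is 33.3%, where 28.7% of all 12305 genes so tested were called, so calls became more frequent among all genes as well. ACTG1, ACTA2, TAGLN and MYL9 had corrected log2 fold changes of −0.16, −0.28, −0.26 and −0.13 with adjusted p of 0.072, 0.071, 0.075 and 0.16.

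**Figure D4:**
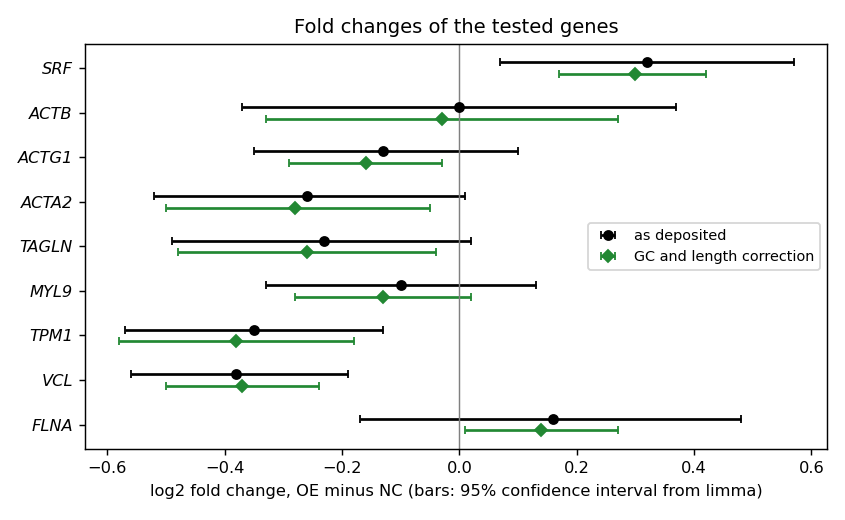
Log2 fold changes of the 9 tested genes, OE minus NC, with 95% confidence intervals from limma (n = 3 each), for the deposited values (black circles) and after correction for GC content and length (green diamonds). The interval of SRF narrows from 0.07 to 0.57 to 0.17 to 0.42, and that of ACTB spans 0 in both.

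Ratios within a library do not depend on how the library was scaled. SRF relative to ACTB had log2 ratios of −6.31, −6.26 and −6.29 in NC and −6.15, −5.78 and −5.98 in OE, a difference of 0.32 with no overlap. FLNA relative to ACTB had ratios of −2.37, −2.37 and −2.41 in NC and −2.24, −2.1 and −2.34 in OE, a difference of 0.15, also with no overlap. Both had an exact permutation p of 0.1, the smallest possible, and 0.45 after Benjamini-Hochberg adjustment over the 9 pairs computed, so neither passed. VCL to ACTB (−0.38) and TPM1 to ACTB (−0.35) had the same mean differences as the genes alone, but their groups overlapped, with the ratio in OE replicate 2 at −4.72 and −5.07. The log2 ratio of ACTB to GAPDH had an SD of 0.0303 among the NC libraries and 0.173 among the OE libraries around the same mean of −0.61.

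The 16 closest relatives of these genes were measured alongside, and 11 were abundant enough to be tested, with a median log2 fold change of −0.13. Tropomyosin 2 (TPM2) fell, from 15.06, 15.79 and 12.73 FPKM in NC to 11.03, 8.31 and 7.79 FPKM in OE, a log2 fold change of −0.64 (SE 0.15, adjusted p = 0.037 by limma). It was the 1 relative called, and the call was lost without any NC library or without OE replicate 2 or 3, with adjusted p up to 0.15. The other tropomyosins, TPM3 and TPM4, were at −0.13 and 0.07, with groups that overlapped, and TPM4 was at −0.0023 after quantile normalization.

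Filamin C (FLNC), the muscle-type filamin, was at 103.52, 100.47 and 101.9 FPKM in NC and at 164.26, 111.69 and 119.65 FPKM in OE. The groups did not overlap, with OE replicate 1 far above the others, and the log2 fold change of 0.35 did not pass. After the GC and length correction FLNC had 0.33 with an adjusted p of 0.0063 by limma, which passed. In that fit 28.7% of all genes tested were called. The transgelin relative TAGLN2, at 762 ± 26.2 FPKM in NC and 687 ± 17.5 in OE, was by far the more abundant transgelin and had a log2 fold change of −0.15. Calponins CNN2 and CNN3, which ran from 94.23 to 127.16 FPKM in NC where CNN1 was at 0, had values of −0.17 and −0.21. The myosin light chains MYL6, MYL12A and MYL12B had −0.20, −0.03 and 0.04, and MYL12A had 0.016 under median-ratio scaling. The muscle actins ACTA1, ACTC1 and ACTG2, the actin-like ACTBL2 and TAGLN3 stayed under 1 FPKM in every library.

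Of 9 SRF cofactors and partners, 7 were tested and 0 were called, with a median log2 fold change of 0.09. MRTFA was at 10.29, 13.82 and 13.7 FPKM in NC and 14.93, 13.04 and 12.29 FPKM in OE, and MRTFB at 19.99, 15.97 and 10.52 against 16.03, 18.34 and 9.23 FPKM. Both overlapped between the groups, and MYOCD, the cofactor of differentiated smooth and cardiac muscle, was listed at 0 in all 6 libraries. Of the TCFs, ELK1 was higher in every OE library (16.13, 18.36 and 17.89 against 21.12, 20.03 and 18.92 FPKM) but did not pass, and ELK3 and ELK4 overlapped.

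Other known MRTF-SRF targets moved in both directions. Of 32, 29 were tested, 2 rose and 3 fell, with a median of −0.07. The secreted matricellular proteins CCN2 (12.9, 12.43 and 11.3 against 27.09, 20.36 and 22.62 FPKM, log2 fold change 0.88, adjusted p = 0.0081 by limma) and CCN1 (0.46, adjusted p = 0.014) rose. The muscle ankyrin-repeat protein ANKRD1 (−0.93, adjusted p = 0.024) and TPM2 fell, as did non-muscle myosin heavy chain MYH10 (−0.37, adjusted p = 0.045), which was named to complete the count. MYH9, a far more abundant non-muscle myosin heavy chain of this list, was higher in every OE library. It was at 948.1, 912.52 and 903.46 against 1398.75, 1084.36 and 1131.76 FPKM. Its log2 fold change of 0.38 did not pass (adjusted p = 0.054 by limma), and MYH9 was named after its values were seen. CCN1, CCN2 and ANKRD1 are also classical targets of the YAP and TEAD factors. The list shares 9 genes with the relatives above.

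TCF-SRF immediate early targets had a median of 0.16 over 9 of 13 genes, or 0.54 without NC replicate 1. The transcription factor EGR1 rose from 4.05, 3.79 and 2.73 FPKM to 11.31, 8.63 and 8.79 FPKM (log2 fold change 1.23, adjusted p = 0.0059 by limma), IER3 rose by 0.85 (adjusted p = 0.014) and the survival factor MCL1 by 0.55 (adjusted p = 0.048). These 3 were the only ones of the list called. Of the 9 tested, 5 had estimates above 0 and 4 below. FOS was higher in every OE library (2.84, 1.83 and 1.84 against 5.75, 2.9 and 3.28 FPKM) and the nuclear receptor NR4A3 lower in every one (2.93, 3.1 and 3.2 against 2.11, 2.73 and 2.06 FPKM), neither passing, and both were named after their values were seen.

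Around the filament itself, 1 of 16 genes of monomer and filament turnover was called, cofilin 1 (CFL1), which severs filaments and fell by 0.45 on the log2 scale (424.45, 550.65 and 426.96 against 355.17, 321.21 and 343.49 FPKM, adjusted p = 0.044 by limma). Of 13 genes of the Arp2/3 complex and its activators, WASF2 rose (0.41, adjusted p = 0.02). Of 15 focal adhesion partners of vinculin, the LIM protein TES rose (0.57, adjusted p = 0.034) and talin 2 (TLN2) fell (−0.68, adjusted p = 0.032), at 3.26 and 1.69 FPKM on average. The medians of these 3 lists were −0.21, 0.04 and −0.09.

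Among the genes named from these lists, CCN2 and EGR1 were called with any 1 library left out. The other called genes lost the call without at least 1 library. CCN1 was lost without any 1 NC library, ANKRD1 and WASF2 without any NC library or OE replicate 3, and IER3 without NC replicate 2 or 3 or OE replicate 3. MYH10, MCL1, CFL1, TES and TLN2 were lost without any library but OE replicate 1. The highest adjusted p from limma were 0.073 for CCN1, 0.1 for ANKRD1, 0.099 for WASF2, 0.065 for IER3, 0.17 for MYH10 and MCL1, 0.12 for CFL1 and TLN2 and 0.13 for TES.

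**Figure D5:**
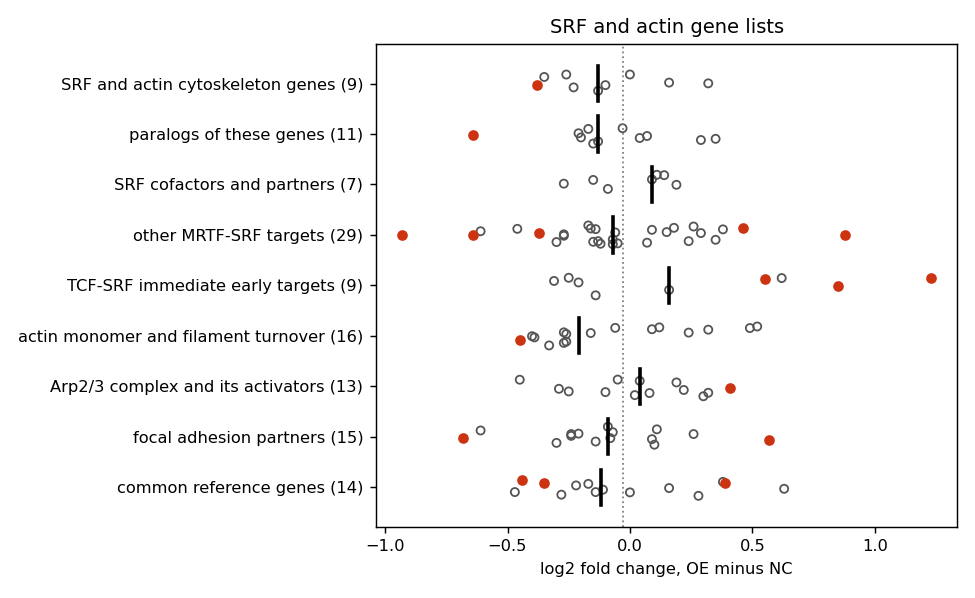
Each circle is 1 tested gene, placed by its log2 fold change, OE minus NC, in the list named at the left with the number tested; filled circles had an adjusted p under 0.05 from limma, black bars are list medians and the dotted line is the median of all tested genes, −0.03. The SRF and actin genes have 1 filled circle, VCL at −0.38, and the farthest filled circle to the right is EGR1 at 1.23.

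The genes with the profile most like that of SRF over the 6 libraries, by root mean square distance of centred log2 values, were IRAK1 (0.0206), TMEM208, NR1H2, DAPK3 and EIF6. Because they were chosen by profile, their likeness to SRF is no separate result. All 5 had 3 OE libraries above NC with OE replicate 1 highest, log2 fold changes of 0.29 to 0.33, and adjusted p of 0.067 to 0.13 by limma. The genes nearest to VCL, chosen in the same way, were CTSH (0.0283), HSPE1, FAM184A, NBAS and FDFT1, with log2 fold changes of −0.41 to −0.35.

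Epithelial markers moved with the groups. Of 8 epithelial markers, 5 fell in OE by limma, CDH1 (E-cadherin, log2 fold change −1.58, adjusted p = 0.0016), KRT8 (−1.42, adjusted p = 0.00056), KRT18 (−0.85, adjusted p = 0.0027), EPCAM (−0.67, adjusted p = 0.017) and KRT19 (−0.56), and the summed level of the 8 was 2470 to 2600 FPKM in NC and 1280 to 1590 FPKM in OE. EPCAM and KRT19 lost the call without any 1 NC library or OE replicate 3, with adjusted p up to 0.084 and 0.071. Of 10 markers of differentiated smooth muscle, 4 were tested and 1 fell, the myosin light chain kinase MYLK (−0.42, adjusted p = 0.031), a call lost without any library but OE replicate 1, with adjusted p up to 0.14. Their sum was 77.5 to 85.7 FPKM in NC and 56.5 to 66.1 FPKM in OE, and MYOCD and CASQ2 were at 0 throughout. Of 10 fibroblast and pericyte markers, 2 were tested and COL1A1 fell (−0.97, adjusted p = 0.01), a call lost without NC replicate 1 (0.05), and the sum was 4.23 to 5.83 FPKM in NC and 2.45 to 5.62 FPKM in OE. OE replicate 2 alone held PDGFRA at 0.93 and THY1 at 0.78 FPKM. Of 6 luminal prostate markers, 1 was tested and it was not called, and the secreted proteases KLK3 and KLK2 and the membrane antigen FOLH1 were at 0 throughout. The part of these shifts in the values of VCL, TPM1 and the other actin genes was not tested.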

How the data were processed

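The data were 6 poly(A) RNA-seq libraries of DU145 cells, 3 NC and 3 OE, grouped by their labels. The authors deposited FPKM values with 2 decimals from paired-end reads. The submitters' processing notes name hg38, and the aligner, FPKM program and annotation are not given in the sources used here.

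Because FPKM carry no counts, limma 3.58.1 (R 4.3.3, trend, two-sided, without covariates, Benjamini-Hochberg) was run on log2(FPKM + 1), for the 12322 of 19727 genes averaging 1 FPKM or more, after a check on simulated data. Single genes and ratios had exact permutation tests (scipy 1.17.1). Depth was read from low values of genes with 1 transcript shorter than 800 nt (93.2% to 98.5% of 55 to 69 values per library within 0.15 of a whole step), and floors cover counting error only. GC content and length came from GENCODE 29, and the correction used loess (span 0.5), which also may remove a group difference that follows GC content.

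Genes named were all 10 members, their relatives, GAPDH, at most the 4 most changed called genes of every other list, and the 5 genes nearest in profile to SRF and to VCL. Members and lists were chosen with earlier results of these data known, and some lists overlap. Some named genes and 1 list are not reported here. Alternatives were other pseudocounts, filters, scalings and variance models, a replicate block, each library left out, and the GC correction. Columns left unused numbered 0.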

Additional observations from a re-analysis of the deposited data

How the results depend on the processing

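The log2 fold changes of the 9 tested genes were recomputed under 20 settings each, where the gene passed the filter, and of 178 values 159 kept both direction and side of the threshold. The count of genes called, 1399, was 125 with libraries scaled to ACTB, 862 scaled to reference genes, 834 without variance moderation, 3529 after GC and length correction, 24 by unadjusted p and fold size, and 300 to 3512 with 1 library left out. The count in the SRF and actin group, 1, was 2 after quantile normalization, 0 under both scalings to other genes, 3 after GC correction, 0 by unadjusted p and fold size, and 0 to 2 with 1 library left out. VCL had −0.38 (adjusted p = 0.59) scaled to ACTB and −0.35 (0.18) scaled to reference genes. With 1 library left out VCL ranged from −0.41 to −0.33. SRF had 0.30 (0.0088) after GC correction. TPM1 had −0.36 (0.045) after quantile normalization and −0.38 (0.018) after GC correction, and −0.40 to −0.27 with 1 library left out. The cause of these shifts was not tested.

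Same-numbered NC and OE libraries deviated from their group means with correlations of 0.073, 0.0065 and 0.057. Differently numbered libraries had −0.067 to 0.036, so 0.073 and 0.057 lay above all of these. Because all were small and no label gives a pairing, the replicate numbers were not taken to pair the libraries. These correlations cannot exclude a pairing. With a replicate block 923 genes and 0 of the group were called, and VCL had −0.38 (adjusted p = 0.069 by limma). With block and GC correction together 2736 genes and 3 of the group were called, SRF with 0.30 (0.031), TPM1 with −0.38 (0.044) and VCL with −0.37 (0.02). ACTB and GAPDH, not called, had −0.030 and −0.037 in that fit.

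Signs near 0 turned. ACTB had −0.0071 after quantile normalization, −0.030 after GC correction and −0.17 to 0.18 with 1 library left out. GAPDH had −0.037 after GC correction and −0.082 to 0.097 with 1 library left out, and FLNA −0.014 to 0.27. MYL12A had 0.016 under median-ratio scaling and TPM4 −0.0023 after quantile normalization and −0.0093 to 0.15 with 1 library left out. The ratio of MYL9 to ACTB ranged from −0.19 to 0.013 and that of ACTB to GAPDH from −0.090 to 0.082. With 1 library left out, list medians ranged from −0.13 to −0.034 for the relatives, −0.049 to 0.12 for SRF cofactors, 0.018 to 0.54 for TCF-SRF targets, −0.27 to 0.0027 for actin turnover, 0.0068 to 0.12 for Arp2/3 and −0.15 to 0.17 for reference genes. Depth limited ACTA2 and CNN1 most, at an estimated 71 to 133 fragments and 0 per library.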
